A study of Homo sapiens with 27 samples.

Results

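The nuclear factor kappa B (NF-kB) subunits are the 5 genes NFKB1, NFKB2, REL, RELA and RELB, and they were read here in macrophage-like THP-1 cells given lipopolysaccharide with and without dexamethasone. The members were taken by gene symbol from the Ensembl identifiers of the count tables, which found all 5 among the 20453 genes listed, and all 5 passed the filter on low counts in RNA and in ribosome footprints. THP-1 is a human monocytic leukaemia line, and every group had first been differentiated for 24 h with 10 ng/ml phorbol 12-myristate 13-acetate (PMA). The groups compared were lipopolysaccharide at 100 ng/ml together with 1 µM dexamethasone (LPS+Dex), lipopolysaccharide alone at 100 ng/ml (LPS), and a vehicle of 0.1% ethanol in PBS, each for 3 h. The LPS+Dex and LPS groups are listed with 0.1% ethanol as well. No group given dexamethasone alone was analysed here, so its action on unstimulated cells was not measured. Each treatment had 4 RNA-seq libraries, which measure poly(A) RNA, and 5 ribosome profiling libraries, which measure the mRNA fragments that ribosomes protect from nuclease (footprints). The labels do not say that replicates were separate cultures, so p-values measure the spread between these libraries, which may be technical.

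NF-kB transcription factors are dimers of Rel homology domain proteins that wait in the cytoplasm bound to inhibitors of kB. When LPS engages its receptor TLR4, adaptors and ubiquitin ligases activate the IkB kinases, the inhibitor is destroyed, and the dimer enters the nucleus and binds kB sites in inflammatory genes, among them genes of NF-kB subunits and of the inhibitors. RELA (p65), REL (c-Rel) and RELB carry a transactivation domain, while NFKB1 and NFKB2 encode the precursors p105 and p100, which are processed to the DNA-binding subunits p50 and p52. Dexamethasone activates the glucocorticoid receptor, which is known to restrain NF-kB target genes. The counts below measure mRNA and ribosome occupancy, not the processing, location or DNA binding of the proteins.

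In the RefSeq annotation of GRCh38.p14, NFKB1 (ENSG00000109320) spans chr4:102501359-102617302, NFKB2 (ENSG00000077150) chr10:102394110-102402529, REL (ENSG00000162924) chr2:60881574-60931612, RELA (ENSG00000173039) chr11:65653601-65663857, and RELB (ENSG00000104856) chr19:45001464-45038192. NFKB1 shares 1128 bases with the long noncoding gene NFKB1-AS1, 6200 with LOC124900742 and 19648 with LOC105377347, introns included. RELA shares 852 bases with the noncoding gene RELA-DT, and REL shares 140 with the pseudogene RNU4-51P. None of these 5 neighbours has a row in the count tables, and the strand setting of the counting is not given in the sources used here, so reads from these stretches cannot be assigned to one partner with certainty.

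The promoter windows of the subunits are shown because kB sites are the elements through which NF-kB acts on its own genes. RefSeq promoter windows of GRCh38.p14, from 250 bases before to 50 bases after a transcription start, were available for NFKB1, NFKB2, REL and RELA, and none for RELB. The windows were searched on both strands for the 10-base kB consensus. In the stretches below, each of 30 bases and written 5′ to 3′ on the plus strand, which is the strand of these genes, capitals mark the match.
NFKB1 start 1, chr4:102501300-102501329: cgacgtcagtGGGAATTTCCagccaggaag
NFKB2 start 2, chr10:102394461-102394490: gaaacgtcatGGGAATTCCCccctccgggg
NFKB2 start 2, chr10:102394490-102394519: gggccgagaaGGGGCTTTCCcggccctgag
NFKB2 start 3, chr10:102395519-102395548: aacccccaccGGGGCTTCCCggattctcct
NFKB2 start 3, chr10:102395674-102395703: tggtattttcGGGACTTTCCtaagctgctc
REL start 1, chr2:60881517-60881546: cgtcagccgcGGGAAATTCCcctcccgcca

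The NFKB1 match lies 49 bases before start 1 of 2. The matches of NFKB2 begin 107 and 78 bases before start 2 and 176 and 21 bases before start 3, while its start 1 window holds none. The REL match begins 47 bases before its single start. In REL, and in the first stretch of NFKB2, a further match overlaps the one shown and begins 1 base later. Neither of the RELA windows holds these letters. Of all 35116 promoter windows in the table, 11.3% hold at least 1 match, as do windows of 13.3% of the 27305 genes. A match is a description of the letters and not a bound site. The upstream 250 bases of REL and of RELA start 1, the members with the largest and smallest rise with LPS, are printed for comparison, each on the strand of its gene, with the overlapping kB matches of REL in capitals.
REL, chr2:60881324-60881573, plus strand: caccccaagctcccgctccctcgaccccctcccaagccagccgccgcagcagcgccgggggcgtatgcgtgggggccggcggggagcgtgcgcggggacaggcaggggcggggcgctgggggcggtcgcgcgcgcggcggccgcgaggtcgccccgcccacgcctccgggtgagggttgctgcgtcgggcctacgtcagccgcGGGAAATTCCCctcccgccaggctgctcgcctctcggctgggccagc
RELA, chr11:65663858-65664107, minus strand: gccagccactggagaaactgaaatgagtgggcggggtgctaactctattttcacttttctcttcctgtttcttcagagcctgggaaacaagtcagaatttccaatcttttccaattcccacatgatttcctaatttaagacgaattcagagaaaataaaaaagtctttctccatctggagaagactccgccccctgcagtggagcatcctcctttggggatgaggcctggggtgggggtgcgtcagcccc

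The REL stretch is 79.6% G and C, and the RELA stretch, which precedes start 1 of 2, is 48.4% G and C. Over the whole windows G and C make up 79.0% for REL, 51.3% for RELA start 1 and 77.0% for RELA start 2, so the contrast with REL holds for start 1 of RELA and not for start 2. The full palindromic glucocorticoid response element, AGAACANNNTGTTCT, was found in no window of the 4 genes and in 0.00285% of all windows, and the AP-1 element TGANTCA, searched on both strands, was found in none of theirs and in 7.71% of all windows.

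Depth lay between 19 M and 30.7 M counted reads per RNA library and between 11.5 M and 26.1 M per footprint library. Values below are counts per 1 M reads (CPM) on library sizes scaled by the trimmed mean of M values (TMM), so a change is relative to the bulk of genes, and counts per gene are not per length, so each gene is compared only with itself. The marker values that follow are the exception: they are CPM on plain library totals, without TMM. All 8 macrophage markers exceeded 1 CPM on average in every treatment and in both assays. Their summed RNA was 2930 to 3010 CPM with LPS+Dex, 2720 to 2920 CPM with LPS and 4380 to 4780 CPM with vehicle. No erythroid or B cell marker exceeded 1 CPM on average, 1 of 7 T and NK cell markers did, and 1 of 8 epithelial and fibroblast markers did. The summed RNA of that last list was 21.4 to 25.8 CPM with LPS+Dex, 6.84 to 10.2 CPM with LPS and 6.43 to 9.47 CPM with vehicle, with EPCAM at 0. The footprint libraries numbered 4 stood apart: their TMM factors were 0.617 with LPS+Dex, 0.616 with LPS and 0.933 with vehicle, against ranges of 1.03 to 1.07, 0.963 to 0.979 and 1.25 to 1.30 in the other footprint libraries of those treatments. Footprint results are therefore also given without these 3 libraries where the call or the overlap of groups changes. Overlap of groups was read for the members alone, and its share over all genes was not counted. A gap between groups, wherever given below, therefore describes the gene and does not set it apart from other genes. On plain library totals the median gene shifted to -0.32 in RNA and -0.47 in footprints (log2, LPS against vehicle), from -0.05 and -0.04 with TMM. On plain totals 25.1% of the genes called in RNA with LPS against vehicle were higher and in footprints 18.1%, where TMM gave 46% and 48.3%. For LPS+Dex against LPS the plain totals gave 61.6% of calls higher in RNA and 65.5% in footprints, where TMM gave 50.2% and 53.2%, and for LPS+Dex against vehicle they gave 28.7% and 23.4%, where TMM gave 48.5% and 52.5%.

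With LPS, all 5 subunit genes rose in RNA and all 5 rose in footprints over vehicle, by amounts that ran from 2.04-fold in RNA and 1.83-fold in footprints for RELA to 8.46-fold and 15.9-fold for REL. With LPS+Dex against LPS, REL fell to 0.477 times its LPS level in RNA and 0.530 times in footprints, NFKB2 fell to 0.750 times and 0.688 times, and the other 3 subunits did not pass the test. In LPS+Dex cells all 5 remained above vehicle. The background to these counts is that 28.6% of 13327 genes tested in RNA and 25.4% of 12197 genes tested in footprints were called higher with LPS against vehicle, where called means a Benjamini-Hochberg adjusted p under 0.05 in edgeR's quasi-likelihood test. In the same comparison 33.6% were called lower in RNA and 27.2% in footprints. With LPS+Dex against LPS, 15.4% of genes were called lower in RNA and 7.99% in footprints, and 15.5% and 9.08% were called higher. With LPS+Dex against vehicle, 29.2% of genes were called higher in RNA and 24.4% in footprints.

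**Figure D1:**
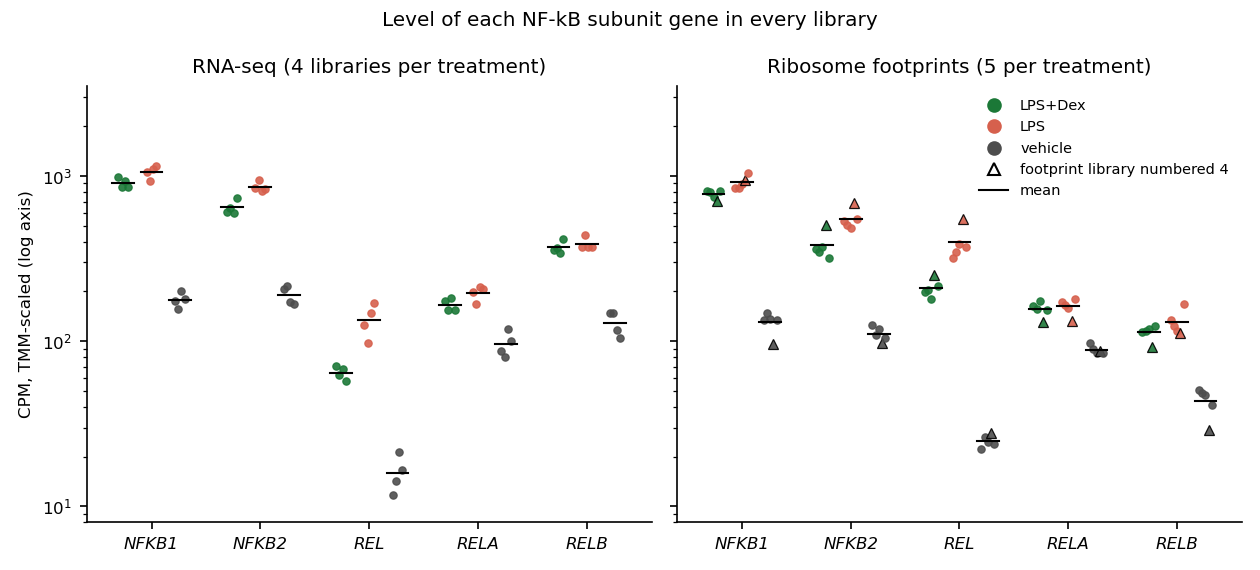
CPM on TMM-scaled library sizes (log axis) of the 5 subunit genes in every library, with RNA-seq on the left and footprints on the right; points are libraries, bars are means, and triangles are the footprint libraries numbered 4. Every LPS+Dex and LPS library lies above every vehicle library for each gene, and the gap between LPS+Dex and LPS is widest for REL. How many other genes separate in this way was not counted.

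REL encodes c-Rel, a transactivating subunit that myeloid cells and lymphocytes use for cytokine genes. REL RNA was 71.1, 62.1, 67.8 and 57.1 CPM in the 4 LPS+Dex libraries, 125, 97.0, 149 and 169.5 CPM in the 4 LPS libraries, and 11.7, 14.2, 21.3 and 16.5 CPM in the 4 vehicle libraries. REL footprints were 199, 203, 181, 252 and 215 CPM with LPS+Dex, 319, 348, 388, 552 and 373 CPM with LPS, and 22.2, 26.3, 24.5, 27.9 and 23.8 CPM with vehicle. No pair of groups overlapped in either assay, and the order was LPS over LPS+Dex over vehicle throughout. The share of all genes that separate in this way was not counted. The means were 64.5 ± 6.18 CPM with LPS+Dex, 135 ± 31.2 CPM with LPS and 15.9 ± 4.06 CPM with vehicle in RNA (SD, n = 4 libraries each), and 209.96 ± 26.5, 396 ± 90.9 and 25.0 ± 2.20 CPM in footprints (SD, n = 5 each). The SD of the LPS libraries was 23.1% of their mean in RNA and 23.0% in footprints, and without the library numbered 4 it was 8.44% in footprints. With LPS against vehicle, REL RNA rose by a log2 fold change of 3.08 ± 0.19 (SE; edgeR adjusted p = 7.6e-09), and REL footprints rose by 3.99 ± 0.15 (edgeR adjusted p = 2.2e-11). These changes stood at the 98.1 percentile of all genes tested in RNA and the 98.9 percentile in footprints. Against LPS alone, LPS+Dex cells had less REL: it fell by 1.07 ± 0.18 on the log2 scale in RNA (SE; edgeR adjusted p = 0.00036) and by 0.92 ± 0.14 in footprints (edgeR adjusted p = 0.00018). Single LPS+Dex libraries held 42.3% to 52.6% of the mean LPS level in RNA and 45.6% to 63.6% in footprints. Against vehicle, LPS+Dex libraries were still higher by a log2 fold change of 2.01 ± 0.19 in RNA and 3.07 ± 0.15 in footprints (SE; edgeR adjusted p = 5.7e-07 and 3.1e-10).

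NFKB2 encodes p100, which holds RELB dimers in the cytoplasm and gives p52 when the noncanonical kinase NIK triggers its processing. NFKB2 RNA was 607, 637, 598 and 735 CPM with LPS+Dex, 847, 941, 813 and 832 CPM with LPS, and 208, 215, 173 and 168 CPM with vehicle. NFKB2 footprints were 361, 344, 370.5, 503 and 320.2 CPM with LPS+Dex, 535, 507, 484, 684 and 548 CPM with LPS, and 125, 109, 118, 97.8 and 105 CPM with vehicle. In RNA the 3 groups did not overlap. In footprints the LPS+Dex library numbered 4, at 503 CPM, exceeded the lowest LPS library, and without the libraries numbered 4 the LPS+Dex libraries (320.2 to 370.5 CPM) lay below all LPS libraries (484 to 548 CPM). On plain library totals, with the libraries numbered 4 included, the LPS+Dex range was 310 to 390 CPM and the LPS range 421 to 536 CPM. NFKB2 rose with LPS by a log2 fold change of 2.17 ± 0.10 in RNA and 2.31 ± 0.13 in footprints (SE; edgeR adjusted p = 2.5e-10 and 2.6e-09). It fell with LPS+Dex against LPS by 0.41 ± 0.09 on the log2 scale in RNA (SE; edgeR adjusted p = 0.0037) and by 0.54 ± 0.13 in footprints (edgeR adjusted p = 0.0077). Single LPS+Dex libraries held 69.7% to 85.6% of the mean LPS level in RNA. Against vehicle the LPS+Dex libraries were higher by a log2 fold change of 1.75 in RNA and 1.77 in footprints.

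NFKB1 encodes p105, which both yields p50 and acts as an inhibitor of NF-kB dimers in its own right. NFKB1 RNA was 989, 863, 938 and 853 CPM with LPS+Dex, 1051, 933, 1099 and 1154 CPM with LPS, and 176, 156, 201 and 179 CPM with vehicle. NFKB1 footprints were 811, 800.0, 750.4, 709.6 and 814 CPM with LPS+Dex, 844, 847, 892, 949 and 1039 CPM with LPS, and 135, 149, 136, 96.2 and 134 CPM with vehicle. The LPS+Dex and LPS groups overlapped in RNA through LPS replicate 2 and did not overlap in footprints, where the 5 LPS+Dex libraries lay just below the 5 LPS libraries. That gap was absent on plain library totals, where footprints were 438 to 867 CPM with LPS+Dex and 585 to 1017 CPM with LPS. Without the libraries numbered 4 the plain ranges, 791 to 867 CPM and 818 to 1017 CPM, overlapped as well. With LPS, NFKB1 rose by a log2 fold change of 2.57 ± 0.09 in RNA and 2.81 ± 0.12 in footprints (SE; edgeR adjusted p = 2.2e-11 and 4.8e-11). The difference between LPS+Dex and LPS was -0.22 ± 0.09 on the log2 scale in RNA (SE; edgeR adjusted p = 0.074, 95% interval -0.41 to -0.03) and -0.23 ± 0.11 in footprints (edgeR adjusted p = 0.17, 95% interval -0.47 to -0.0045), and neither passed the test. The footprint difference passed in 3 of 23 alternative fits: with the replicate number as a block (-0.24, edgeR adjusted p = 0.044), without the 3 libraries numbered 4 (-0.19, edgeR adjusted p = 0.030) and without vehicle replicate 4 alone (-0.24, edgeR adjusted p = 0.0498). On plain library totals it was -0.12 (edgeR adjusted p = 0.87), and -0.08 on plain totals without the libraries numbered 4 (edgeR adjusted p = 0.38). The RNA difference passed in 7 of 18 alternative fits, among them the fit without LPS replicate 2 (-0.27, edgeR adjusted p = 0.027). Against vehicle the LPS+Dex libraries were higher by a log2 fold change of 2.36 in RNA and 2.58 in footprints.

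RELA encodes p65, the transactivating partner of p50 in the dimer that most canonical signals release. RELA RNA was 174, 154, 181 and 155 CPM with LPS+Dex, 199, 169, 213 and 207 CPM with LPS, and 87.3, 80.6, 118 and 100.3 CPM with vehicle. RELA footprints were 162, 158, 174, 131 and 154 CPM with LPS+Dex, 174, 166, 158, 133 and 179.9 CPM with LPS, and 97.5, 89.3, 84.2, 87.5 and 85.1 CPM with vehicle. Both stimulated groups lay above all vehicle libraries in both assays, and the LPS+Dex and LPS groups overlapped in both. RELA rose with LPS by a log2 fold change of 1.03 ± 0.11 in RNA (SE; edgeR adjusted p = 3.0e-06) and 0.87 ± 0.09 in footprints (edgeR adjusted p = 1.6e-06), and with LPS+Dex it stood 0.78 ± 0.11 and 0.81 ± 0.09 above vehicle. The RNA rise held on plain library totals (0.75, edgeR adjusted p = 6.8e-05). In footprints the plain totals gave 0.47 for LPS against vehicle (edgeR adjusted p = 0.082) and 0.51 for LPS+Dex against vehicle (edgeR adjusted p = 0.075). Without the libraries numbered 4 the plain totals gave 0.54 (edgeR adjusted p = 9.9e-08) and 0.58 (edgeR adjusted p = 4.4e-08). On plain totals RELA footprints in those libraries were 164 to 183 CPM with LPS+Dex, 152 to 176 CPM with LPS and 107 to 122 CPM with vehicle, while the libraries numbered 4 held 80.6, 82.1 and 81.7 CPM in the same order of groups. The difference between LPS+Dex and LPS was -0.24 ± 0.11 in RNA (SE; edgeR adjusted p = 0.12, 95% interval -0.49 to -0.00066) and -0.06 ± 0.09 in footprints (edgeR adjusted p = 0.76, 95% interval -0.26 to 0.13), with a value of 0.04 in footprints on plain totals, and 0.05 there without the libraries numbered 4. The RNA difference passed in 3 of 18 alternative fits, among them the fit without LPS replicate 2 (-0.31, edgeR adjusted p = 0.0495).

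RELB encodes the partner of p52 in the noncanonical dimer. RELB RNA was 354, 366, 344 and 418 CPM with LPS+Dex, 371, 436, 372 and 370.3 CPM with LPS, and 148, 148, 118 and 104 CPM with vehicle. RELB footprints were 114, 116, 119, 92.2 and 124 CPM with LPS+Dex, 135, 124, 115, 113 and 167 CPM with LPS, and 50.9, 48.6, 47.3, 28.8 and 41.0 CPM with vehicle. The LPS+Dex and LPS groups overlapped in both assays, and every vehicle library lay below them. RELB rose with LPS by a log2 fold change of 1.58 ± 0.11 in RNA and 1.59 ± 0.15 in footprints (SE; edgeR adjusted p = 3.2e-08 and 5.1e-07). The difference between LPS+Dex and LPS was -0.06 ± 0.11 in RNA (SE; edgeR adjusted p = 0.69, 95% interval -0.30 to 0.17) and -0.21 ± 0.15 in footprints (edgeR adjusted p = 0.41, 95% interval -0.53 to 0.10). In both assays this interval overlapped that of NFKB2, which was -0.62 to -0.21 in RNA and -0.81 to -0.27 in footprints. The difference between RELB and NFKB2 was not tested. Against vehicle the LPS+Dex libraries were higher by a log2 fold change of 1.52 in RNA and 1.38 in footprints.

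**Figure D2:**
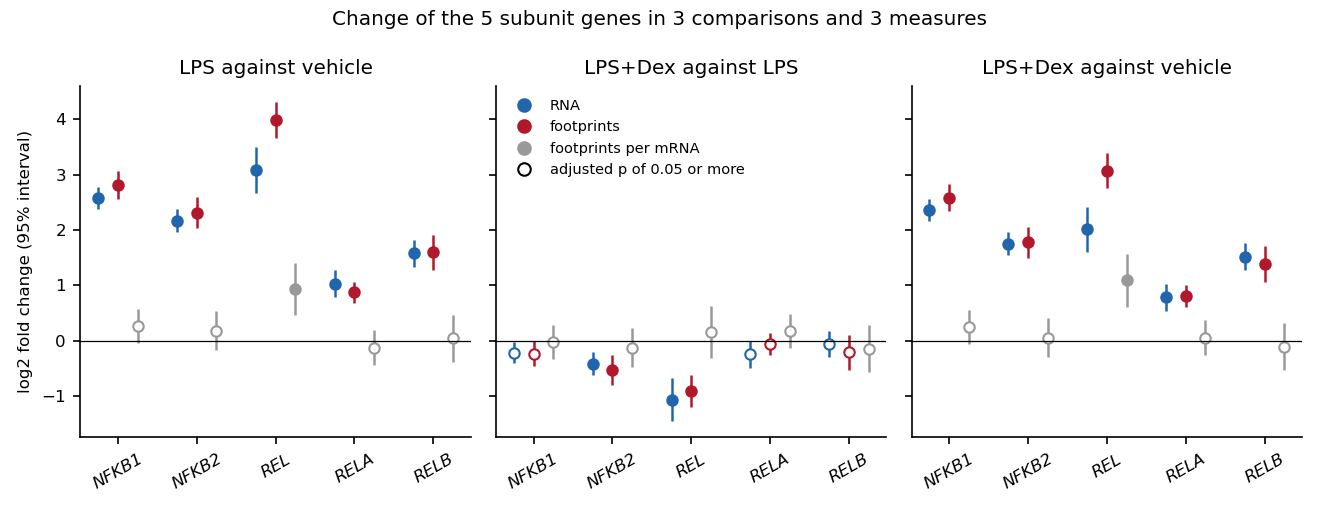
Log2 fold change of each subunit gene in RNA (blue), footprints (red) and footprints per mRNA (grey) in the 3 comparisons; bars are 95% intervals of edgeR's quasi-likelihood fit and open circles did not pass an adjusted p under 0.05. REL and NFKB2 are the members with filled circles in LPS+Dex against LPS, and REL is the member with a filled circle for footprints per mRNA, at 0.94 for LPS and 1.09 for LPS+Dex against vehicle.

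Of the 5 members, 5 were called higher with LPS, 2 lower with LPS+Dex against LPS and 5 higher with LPS+Dex against vehicle, and these counts were the same in RNA and footprints. The median log2 fold change of the members with LPS was 2.17 in RNA and 2.31 in footprints, beside -0.05 and -0.04 over all genes tested. The medians with LPS+Dex against LPS were -0.24 in RNA and -0.23 in footprints, beside 0.01 and 0.02 over all genes. The order of the LPS responses was the same in both assays: REL, then NFKB1, NFKB2, RELB and RELA. In LPS+Dex against vehicle NFKB1 led the RNA order at 2.36, ahead of REL at 2.01, while REL at 3.07 led the footprint order ahead of NFKB1 at 2.58. These intervals overlap in RNA (2.16 to 2.55 for NFKB1 and 1.61 to 2.41 for REL) and in footprints (2.33 to 2.82 for NFKB1 and 2.76 to 3.38 for REL). The 3 comparisons share their groups, so they are not independent of each other. With the replicate number as a block, 3769 genes were called in footprints for LPS+Dex against LPS in either direction, against 2083 without it.

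The mix of subunits was read as the log2 ratio of each gene's counts to those of RELA in the same library, which does not depend on how libraries are scaled. For REL the ratio was -1.37 ± 0.07 with LPS+Dex, -0.57 ± 0.22 with LPS and -2.62 ± 0.20 with vehicle in RNA (SD, n = 4 libraries each). In footprints it was 0.43 ± 0.33 with LPS+Dex, 1.27 ± 0.46 with LPS and -1.83 ± 0.18 with vehicle (SD, n = 5 each). The counts are not per length, so the ratio is not a ratio of molecules, and its sign has no meaning here. What can be read is how it moved: in both assays every LPS+Dex and LPS library lay above every vehicle library. The LPS+Dex and LPS groups did not overlap in RNA. In footprints they overlapped through the LPS+Dex library numbered 4 at 0.95, and without the libraries numbered 4 the ranges were 0.05 to 0.48 with LPS+Dex and 0.88 to 1.29 with LPS.

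For NFKB1 the ratio to RELA was 2.45 ± 0.06 with LPS+Dex, 2.43 ± 0.05 with LPS and 0.89 ± 0.11 with vehicle in RNA (SD, n = 4 each), so the stimulated groups overlapped and both stood clear of vehicle. For NFKB2 it was 1.95 ± 0.24, 2.13 ± 0.24 and 0.99 ± 0.41 in RNA in the same order of groups. In footprints NFKB2 gave 1.28 ± 0.38 with LPS+Dex, 1.76 ± 0.33 with LPS and 0.32 ± 0.12 with vehicle (SD, n = 5 each), and without the libraries numbered 4 its LPS+Dex range of 1.06 to 1.15 lay below its LPS range of 1.61 to 1.62. For RELB the RNA ratio was 1.15 ± 0.23 with LPS+Dex, 0.98 ± 0.26 with LPS and 0.42 ± 0.46 with vehicle, and its LPS and vehicle libraries overlapped. In footprints the RELB ratio was -0.46 ± 0.09 with LPS+Dex, -0.32 ± 0.15 with LPS and -1.06 ± 0.31 with vehicle. There both stimulated groups stood clear of vehicle, and the LPS+Dex mean lay below the LPS mean where in RNA it lay above it. In both assays, though, the LPS+Dex and LPS libraries overlapped in the RELB ratio. These ratios are a description, and the differences between members were not tested.

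**Figure D3:**
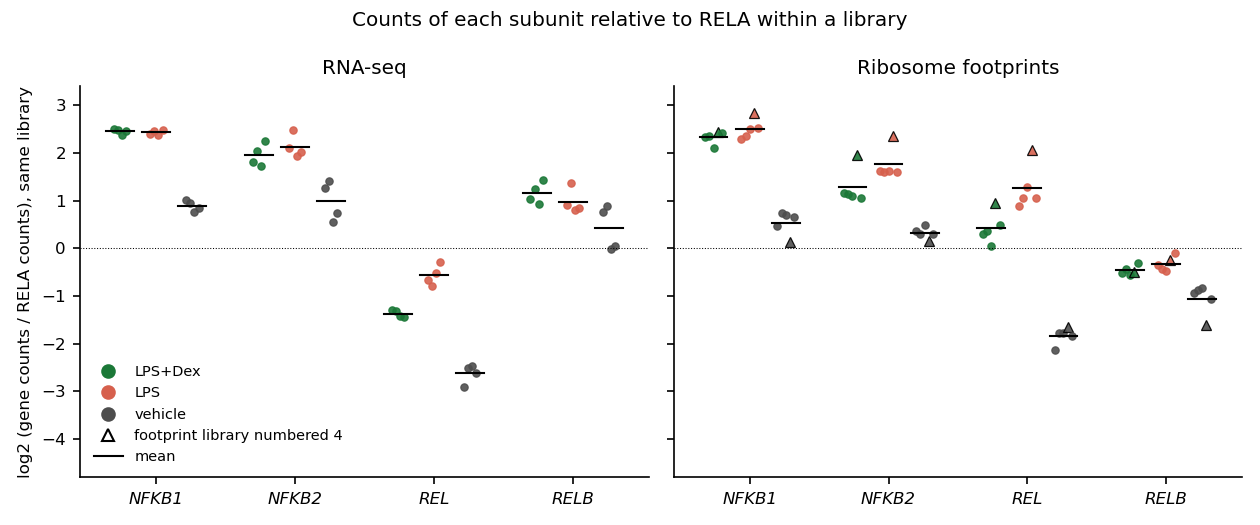
Log2 ratio of the counts of NFKB1, NFKB2, REL and RELB to those of RELA in the same library, in RNA-seq (left) and footprints (right); points are libraries, bars are means and triangles are the footprint libraries numbered 4. The REL footprint ratio of every LPS+Dex and LPS library, with means of 0.43 and 1.27, lies above that of every vehicle library, with a mean of -1.83. Counts are not per length, so the sign of a ratio has no meaning here.

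Footprints per mRNA compare ribosome occupancy with message level: the change in footprints minus the change in RNA, tested as an interaction in 1 fit over all 27 libraries. Of 11944 genes tested, 1.02% were called higher with LPS against vehicle, 0.0502% were called in either direction with LPS+Dex against LPS, and 1.32% were called higher with LPS+Dex against vehicle. REL was the member called, and it rose in both comparisons with vehicle. Footprint CPM over the mean RNA CPM of the same treatment was 3.09, 3.15, 2.80, 3.90 and 3.33 for REL with LPS+Dex, 2.36, 2.57, 2.87, 4.08 and 2.76 with LPS, and 1.40, 1.65, 1.54, 1.75 and 1.50 with vehicle. Both stimulated groups lay above all vehicle libraries, and they overlapped with each other. These values share 1 RNA mean per treatment, so they do not carry the spread of the RNA libraries. For REL the RNA SD was 9.57% of the mean with LPS+Dex, 23.1% with LPS and 25.5% with vehicle. The log2 change with LPS against vehicle was 0.94 ± 0.23 (SE; edgeR adjusted p = 0.031, 95% interval 0.46 to 1.41), and with LPS+Dex against vehicle it was 1.09 ± 0.23 (edgeR adjusted p = 0.011, 95% interval 0.61 to 1.56). The difference between LPS+Dex and LPS was 0.15 ± 0.23 (edgeR adjusted p = 0.95, 95% interval -0.32 to 0.62).

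The REL call with LPS+Dex against vehicle held in all 35 alternative fits, with adjusted p between 0.00037 and 0.039. The call with LPS against vehicle held in 24 of 35, with log2 changes between 0.69 and 1.06 and adjusted p between 0.0015 and 0.14. It was lost on plain library totals (0.72, adjusted p = 0.14), with only the LPS and vehicle libraries in the fit (0.92, adjusted p = 0.10), and without RNA vehicle replicate 3 (0.77, adjusted p = 0.079) or 4 (0.92, adjusted p = 0.063), RNA LPS replicate 1 (0.90, adjusted p = 0.078) or 2 (0.81, adjusted p = 0.077), footprint vehicle replicate 1 (0.90, adjusted p = 0.061), 3 (0.93, adjusted p = 0.053) or 5 (0.92, adjusted p = 0.055), or footprint LPS replicate 3 (0.93, adjusted p = 0.052) or 4 (0.78, adjusted p = 0.056). All these are edgeR fits. Without the 3 footprint libraries numbered 4 it was 0.82 (edgeR adjusted p = 0.012), and on plain totals without them 0.69 (edgeR adjusted p = 0.032).

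For the other 4 members no change in footprints per mRNA passed the test. With LPS against vehicle the log2 change was 0.27 for NFKB1 (95% interval -0.04 to 0.58), 0.18 for NFKB2 (-0.17 to 0.53), -0.12 for RELA (-0.43 to 0.18) and 0.04 for RELB (-0.38 to 0.47). With LPS+Dex against LPS it was -0.02 for NFKB1 (95% interval -0.33 to 0.29), -0.13 for NFKB2 (-0.48 to 0.22), 0.18 for RELA (-0.13 to 0.49) and -0.15 for RELB (-0.57 to 0.28). Of the 5 members 0 were called in that comparison by edgeR, 0 had an unadjusted p under 0.05, and 0 were called by DESeq2. Mean footprints per mRNA were 0.854 with LPS+Dex, 0.864 with LPS and 0.732 with vehicle for NFKB1, and 0.305, 0.338 and 0.335 in the same order of groups for RELB. The sign of the small changes of RELB with LPS and of NFKB1 with LPS+Dex against LPS flipped on plain totals, without the libraries numbered 4 and with both settings together, and that of NFKB2 with LPS flipped on plain totals with and without those libraries. With the replicate number as a block, 878 genes were called with LPS against vehicle (213 without it), 66 with LPS+Dex against LPS (6 without it) and 1453 with LPS+Dex against vehicle (231 without it), in either direction.

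**Figure D4:**
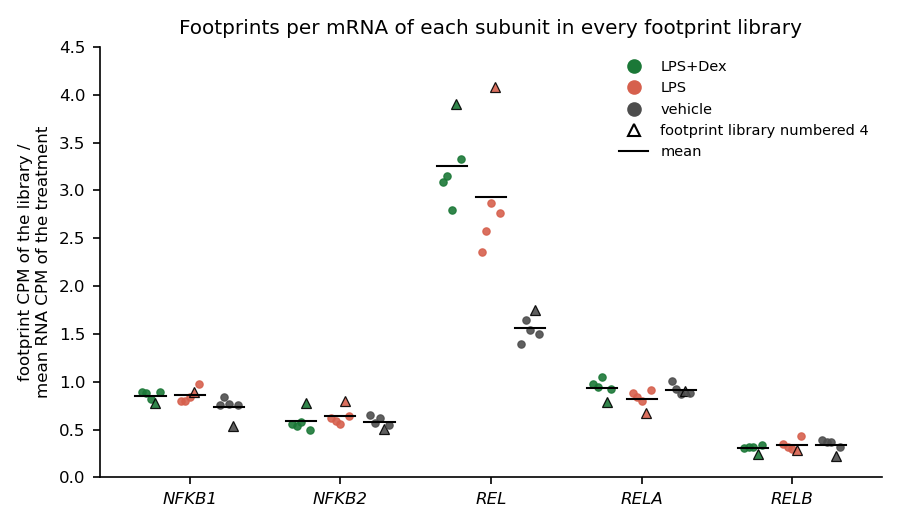
Footprint CPM of each library over the mean RNA CPM of its treatment for the 5 subunit genes; points are footprint libraries, bars are means and triangles are the libraries numbered 4. For REL the LPS+Dex libraries lie between 2.80 and 3.90 and the LPS libraries between 2.36 and 4.08, all above the vehicle libraries between 1.40 and 1.75. The points do not carry the spread of the RNA libraries.

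The list of kB inhibitors, which includes nuclear members that act on DNA-bound dimers, rose with LPS. All 6 IkB genes listed (NFKBIA, NFKBIB, NFKBIE, NFKBID, NFKBIZ and BCL3) rose with LPS in RNA and in footprints, with a median log2 fold change of 1.45 in RNA beside -0.05 over all genes, and on plain totals 6 rose in RNA and 5 in footprints. The shares called higher over all genes were 28.6% in RNA and 25.4% in footprints. NFKBIA, which encodes IkB alpha and is itself an NF-kB target, had the largest RNA rise of the list, 2.69 ± 0.12 (SE; edgeR adjusted p = 1.7e-10), with 2.75 ± 0.11 in footprints. NFKBIZ, a nuclear member, rose by 2.67 in RNA and 3.97 in footprints. In LPS+Dex cells, set against LPS, 2 of 6 fell and 0 rose in RNA, and 2 fell and 1 rose in footprints. Over all genes 15.4% were lower and 15.5% higher in RNA, and 7.99% and 9.08% in footprints. The genes that fell were BCL3 and NFKBID (-1.17 in RNA and -1.42 in footprints) in both assays, and the gene that rose in footprints was NFKBIZ, at 0.51. BCL3, a nuclear IkB protein that binds p50 and p52, had the largest fall, -1.49 ± 0.15 in RNA (SE; edgeR adjusted p = 4.1e-06) and -1.46 ± 0.14 in footprints (edgeR adjusted p = 2.1e-06).

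Among 10 genes of the IKK and NIK kinase group, 6 rose and 2 fell in RNA with LPS, and 6 rose and 1 fell in footprints, beside 28.6% higher and 33.6% lower among all genes in RNA and 25.4% and 27.2% in footprints. On plain totals these counts were 3 and 3 in RNA and 1 and 3 in footprints (3 and 4 without the libraries numbered 4), so the balance of this list depends on the scaling. TAB2, a ubiquitin-binding partner of the kinase TAK1, rose most, by a log2 fold change of 1.33 in RNA and 1.18 in footprints. TAB1, an activator of TAK1, fell most, by 1.27 in RNA and by 1.63 in footprints. MAP3K14, which encodes NIK, was the other gene of this list to fall in RNA, by 0.96. Dexamethasone added to LPS left 1 of 10 lower and 0 higher in each assay, where plain totals gave 1 lower and 1 higher in RNA and 0 of either in footprints (1 lower and 3 higher without the libraries numbered 4). Over all genes 15.4% were lower and 15.5% higher in RNA, and 7.99% and 9.08% in footprints. The fall in footprints was TAB3, at -0.58. It did not pass on plain totals (-0.49, edgeR adjusted p = 0.26) and passed there without the libraries numbered 4 (-0.50, edgeR adjusted p = 0.025). The fall in RNA was IKBKE, an IKK-related kinase, at -0.27 (edgeR adjusted p = 0.012), with 0.07 in footprints (edgeR adjusted p = 0.87).

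Of 20 genes tested for the ubiquitin steps of activation, 13 rose and 3 fell in RNA with LPS, and 11 rose and 4 fell in footprints. Plain totals gave 11 and 4 in RNA and 7 and 4 in footprints (7 and 7 without the libraries numbered 4). The shares over all genes were 28.6% higher and 33.6% lower in RNA, and 25.4% and 27.2% in footprints. TRAF1, an adaptor of TNF receptors that NF-kB induces, rose by a log2 fold change of 4.81 ± 0.13 in RNA and 5.06 ± 0.11 in footprints (SE), and with LPS+Dex against LPS it fell by 0.99 in RNA and by 0.90 in footprints. TRAF5, another TRAF adaptor, fell with LPS by 1.42 in RNA and by 1.19 in footprints. TRAF5 rose with LPS+Dex against LPS by 1.14 in RNA (edgeR adjusted p = 0.0050), and its footprint value was 0.52 (edgeR adjusted p = 0.55). In that comparison 3 of the 20 rose and 7 fell in RNA, and 1 rose and 4 fell in footprints, beside 15.5% higher and 15.4% lower among all genes in RNA and 9.08% and 7.99% in footprints. The share of rises in RNA is near that over all genes. On plain totals 3 rose and 5 fell in RNA, and 0 rose and 1 fell in footprints (3 and 4 without the libraries numbered 4).

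Of 12 receptors that feed the pathway, 4 rose and 6 fell in RNA with LPS, and 2 rose and 4 fell in footprints. The shares over all genes were 28.6% higher and 33.6% lower in RNA and 25.4% and 27.2% in footprints. Plain totals gave 3 and 7 in RNA and 2 and 7 in footprints (4 and 7 without the libraries numbered 4). CD40, a TNF receptor family member, rose by a log2 fold change of 3.52 in RNA and 3.73 in footprints, and CD14, the LPS co-receptor, fell by 2.06 in RNA and by 1.98 in footprints. In LPS+Dex against LPS, 2 receptors rose and 6 fell in RNA, and 1 rose and 2 fell in footprints, where all genes gave 15.5% and 15.4% in RNA and 9.08% and 7.99% in footprints. Plain totals left the RNA counts at 2 and 6 and gave 1 and 4 in footprints (5 and 5 without the libraries numbered 4). TLR2, the receptor of bacterial lipopeptides, rose by 1.67 ± 0.09 in RNA and 1.73 ± 0.37 in footprints (SE; edgeR adjusted p = 6.7e-09 and 0.0034). TLR4, the LPS receptor, fell by 1.85 in RNA and by 1.32 in footprints.

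Of 9 adaptors tested, 7 rose and 1 fell in RNA with LPS, and 6 rose and 1 fell in footprints, where plain totals left 2 risen and 1 fallen (4 and 2 without the libraries numbered 4). Among all genes 28.6% were higher and 33.6% lower in RNA, and 25.4% and 27.2% in footprints. IRAK2, a kinase of the MyD88 complex, rose by 3.31 in RNA and 3.52 in footprints, and IRAK4, the kinase that starts that complex, fell by 0.37 in RNA and by 0.69 in footprints. Between LPS+Dex and LPS, 2 adaptors rose and 2 fell in RNA, and 2 rose and 1 fell in footprints. All genes gave 15.5% higher and 15.4% lower in RNA and 9.08% and 7.99% in footprints. On plain totals the RNA counts were again 2 and 2, and in footprints 1 rose and 0 fell (2 and 0 without the libraries numbered 4). IRAK3, an inhibitory member of the family, rose by 1.93 ± 0.08 in RNA and 2.28 ± 0.15 in footprints (SE; edgeR adjusted p = 5.5e-10 and 1.0e-07). IRAK2 fell by 0.53 in RNA (edgeR adjusted p = 0.020), and its footprint value was -0.24 (edgeR adjusted p = 0.20).

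Of 14 nuclear partners and modifiers of RelA, 3 rose and 6 fell in RNA with LPS, and 2 rose and 6 fell in footprints. The shares over all genes were 28.6% higher and 33.6% lower in RNA, and 25.4% and 27.2% in footprints. Plain totals gave 2 and 9 in RNA and 0 and 8 in footprints (1 and 11 without the libraries numbered 4). NR3C1, the glucocorticoid receptor, rose with LPS by 0.95 in RNA and 1.00 in footprints, and with LPS+Dex against LPS it fell by 1.11 in RNA and by 0.81 in footprints. On plain totals the footprint values of NR3C1 did not pass, at 0.60 with LPS (edgeR adjusted p = 0.075) and -0.70 with LPS+Dex against LPS (edgeR adjusted p = 0.13). Without the libraries numbered 4 the plain totals gave 0.66 and -0.68, and both passed (edgeR adjusted p = 4.1e-08 and 9.6e-08). PDLIM2, a ubiquitin ligase for nuclear p65, fell with LPS by 1.77 in RNA and by 2.04 in footprints. TSC22D3, which encodes the glucocorticoid-induced leucine zipper protein that binds p65, had the largest rise of the list with LPS+Dex against LPS, 4.12 ± 0.17 in RNA and 4.32 ± 0.17 in footprints (SE; edgeR adjusted p = 8.7e-10 and 5.5e-10). In that comparison 5 of 14 rose and 1 fell in RNA, and 1 rose and 1 fell in footprints. Over all genes 15.5% were higher and 15.4% lower in RNA, and 9.08% and 7.99% in footprints. Plain totals gave the same counts in RNA and 1 and 0 in footprints (4 and 1 without the libraries numbered 4).

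The genes with the pattern nearest to each member were found by the root mean square difference over 4 log2 fold changes (LPS against vehicle and LPS+Dex against LPS, in RNA and in footprints) among 8459 genes. For REL the nearest were CD40 at 0.258, B4GALT5 at 0.295 and GP1BA at 0.295. For NFKB1 they were TRIM36 at 0.117, TIFA at 0.139 and TBC1D10A at 0.154, and for NFKB2 they were PPP3CC at 0.0753, KCNK5 at 0.0836 and CCRL2 at 0.0959. For RELA they were RAB21 at 0.047, ANXA7 at 0.0512 and GPC4 at 0.0555, and for RELB they were ELOA at 0.123, UXS1 at 0.128 and NFKBIB at 0.128. Among the members themselves the nearest pair was NFKB1 and NFKB2 at 0.37, and the farthest was REL and RELA at 1.96. Even in the nearest pair other genes lay closer: NFKB2 held place 38 in the order of distance from NFKB1, and NFKB1 held place 58 from NFKB2.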

How the data were processed

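The authors deposited raw counts of reads per Ensembl gene, 1 table for RNA-seq (12 libraries) and 1 for ribosome footprints (15 libraries), with no scaling or pooling in either. GRCh38 was the build, and Bowtie2 2.4.5 (footprints), STAR 2.7.10a, featureCounts 2.0.1 and DESeq2 1.26.0 are named, per the submitters' processing notes. Neither the strand setting and feature used for counting nor the treatment of multiply matching reads is given in the sources used here. The tests were run in R 4.3.3 with edgeR 4.0.16 after filterByExpr (at least 10 counts, total at least 15) and TMM scaling, as quasi-likelihood F tests, 2-sided, adjusted by Benjamini-Hochberg over all genes tested. The assays were fitted separately with 3 treatments each, and footprints per mRNA as an interaction over 27 libraries. The 95% intervals use the t quantile of the fit. The fits were tested on simulated counts, drawn from the mean vehicle profile of each assay with changes added to some genes. The simulation held no replicate effect and no library that stood apart, so it does not bear on the libraries numbered 4. No pair of replicates agreed within sampling noise: chi-square per gene was at least 3.34 in RNA and 3.91 in footprints.

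Same-numbered footprint libraries deviated together from their group means: 15 of 15 pairs correlated over 0.1, against 34 of 60 pairs with different numbers. Leaving aside the libraries numbered 4, 3 of 12 and 2 of 36 did. In RNA 7 of 12 and 13 of 36 did, and 6 of 9 and 5 of 18 leaving aside the libraries numbered 4. The main fits of both assays used no replicate block, and the block was run as an alternative. The labels do not say what a number marks.

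Alternatives were DESeq2 1.42.0, its size factors in edgeR, no filter, a replicate block, fits of only the treatments compared, leaving out each library, leaving out the footprint libraries numbered 4, plain CPM totals for levels and, chosen after seeing the data, plain library totals for the tests, with and without the footprint libraries numbered 4. The members, pathway lists and marker lists were chosen with earlier results of these data known. All members are named; from each pathway list the genes with the largest called rise and fall in RNA, in LPS against vehicle and LPS+Dex against LPS, are named, and for each member the 3 genes nearest in pattern with at least 5 CPM on average in both assays. NFKBIZ, NFKBID, MAP3K14 and TAB3 were named after their values were seen. Levels per length and the protein sequences were not analysed here.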

Additional observations from a re-analysis of the deposited data

Results flagged for a closer look

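Of the 30 groups of member levels (5 genes, 2 assays, 3 treatments), 3 held a library far from the others of its group by Dixon's 95% criterion, and chance gives about 1 in 20 groups. NFKB1 footprints were 96.2 CPM in vehicle replicate 4, against 134 CPM in the next lowest vehicle library. NFKB2 footprints were 503 CPM in LPS+Dex replicate 4, against 370.5 CPM in the next highest LPS+Dex library. On plain library totals that NFKB2 value was the lowest of its group instead, at 310 CPM against 341 to 390 CPM. The NFKB1 value of vehicle replicate 4 stayed the lowest of its group there, at 89.7 CPM against 168 to 188 CPM. RELB RNA was 436 CPM in LPS replicate 2, against 372 CPM in the next highest LPS library. The footprint libraries numbered 4 are the ones whose TMM factors stood apart, and their part in these values was not tested.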

How the results depend on the processing

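Across the alternative settings, 1140 values of the members were recomputed: 1088 kept their direction and their side of the threshold, 13 lost the call, 13 gained it and 26 changed sign. The rises of REL, NFKB1, NFKB2 and RELB in RNA and footprints and the falls of REL and NFKB2 kept their calls in every setting run. The count of members called for LPS+Dex against LPS in RNA, 2, was 4 with the replicate block and 4 with only the treatments compared, where NFKB1 and RELA joined, and 2 to 4 when each library was left out. NFKB1 also gained that call with DESeq2's size factors (adjusted p = 0.049) and the DESeq2 test (adjusted p = 0.037). The count of members called for footprints per mRNA with LPS against vehicle, 1, was 0 on plain totals and 0 with only the treatments compared, and 0 to 1 when each library was left out. Genes called for LPS+Dex against LPS in footprints numbered 2083, 3769 with the replicate block 3855 without the libraries numbered 4 and 4486 on plain totals without them. For footprints per mRNA, LPS against vehicle gave 213 genes, 435 with DESeq2, 878 with the block, 128 with only the treatments compared, 699 without the libraries numbered 4, 135 on plain totals, 1270 on plain totals without them and 135 to 318 when each library was left out. LPS+Dex against LPS gave 6, then 25, 66 and 51 with DESeq2, the block and the libraries numbered 4 left out, 53 on plain totals without those libraries, and 3 to 14 when each library was left out. LPS+Dex against vehicle gave 231, then 467, 1453 and 1023 under the same settings, 115 on plain totals, 1408 on plain totals without those libraries and 118 to 315 when each library was left out. Values that changed sign were small. On plain totals they were 0.039 for RELA footprints with LPS+Dex against LPS, and, for footprints per mRNA, -0.041 for NFKB2 and -0.15 for RELB with LPS against vehicle, 0.041 for NFKB1 with LPS+Dex against LPS, and -0.14 for NFKB2 and -0.059 for RELA with LPS+Dex against vehicle. Without the libraries numbered 4 they were -0.036 for RELB with LPS against vehicle, 0.023 for NFKB1 with LPS+Dex against LPS and -0.13 for NFKB2 with LPS+Dex against vehicle. With both settings together they were 0.046 for RELA footprints with LPS+Dex against LPS, and, for footprints per mRNA, -0.11 for NFKB2 and -0.17 for RELB with LPS against vehicle, 0.085 for NFKB1 with LPS+Dex against LPS and -0.21 for NFKB2 with LPS+Dex against vehicle. When each library was left out, footprints per mRNA ran from -0.082 to 0.13 for RELB with LPS against vehicle, -0.063 to 0.034 for NFKB1 with LPS+Dex against LPS, and -0.083 to 0.12 for NFKB2 and -0.054 to 0.13 for RELA with LPS+Dex against vehicle. The cause of these changes was not tested. Except for NFKB1 and RELA above and the footprint call of NFKB1, the replicate block changed no call of a member. REL RNA in vehicle rests on 279 to 733 counts per library. Plain totals moved 8 of the mean CPM levels by more than 1 SD.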

Other observations

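Within a treatment the RNA libraries ordered the members in contrasting ways. In LPS replicate 2, NFKB1, REL and RELA had their lowest RNA of the LPS group (933, 97.0 and 169 CPM), while NFKB2 and RELB had their highest (941 and 436 CPM). In LPS+Dex replicate 4, NFKB1 and REL had their lowest RNA (853 and 57.1 CPM) and NFKB2 and RELB their highest (735 and 418 CPM). In the vehicle group NFKB1, REL and RELA peaked in replicate 3 (201, 21.3 and 118 CPM), where NFKB2 and RELB stood at 173 and 118 CPM, below replicates 1 and 2 (208 and 215 CPM for NFKB2, 148 CPM in both for RELB). These are values of single libraries, and their source was not tested.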
